A study of Mus musculus with 12 samples.

Results

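The integrated stress response is represented here by 10 genes, Atf4 and 9 genes that it is known to activate (Ddit3, Trib3, Chac1, Atf3, Ddit4, Sesn2, Asns, Psat1 and Phgdh), taken by symbol from the 34245 genes of an mRNA sequencing experiment on mouse blastocysts. The targets fall into a stress and cell death arm, led by Ddit3, and an amino acid synthesis arm (Asns, Psat1 and Phgdh), and the comparison asks whether the arms moved apart when p38 mitogen-activated protein kinase was inhibited. The set was chosen by the measured changes of Ddit3 (higher) and Asns (lower) under inhibition at the earliest time point, so their values at E3.5 + 4 h are given as a description and carry no test. All embryos came from F1 hybrid mice (C57Bl6 x CBA/W), were cultured from the 2-cell stage in KSOM medium with supplemented amino acids, and at E3.5 were moved in pools of 30 to the same medium with 20 µM SB220025 (p38-MAPKi, p38i in the labels) or with an equal volume of its solvent (control, DMSO in the labels). Pools were lysed 4, 7 or 10 h later, which gives 6 groups of 2 libraries and 12 libraries in all. Each library is a whole-blastocyst pool, so trophectoderm, epiblast and primitive endoderm were sequenced together, and a lower transcript level in a few cells cannot be told apart from fewer cells that carry it.

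The integrated stress response is a brake on protein synthesis. Kinases that sense unfolded protein in the endoplasmic reticulum, amino acid shortage, double-stranded RNA or lack of haem phosphorylate the initiation factor eIF2 on its alpha subunit, general translation falls, and a few mRNAs with upstream open reading frames are translated more, Atf4 among them. ATF4 protein, usually paired with a C/EBP factor, then switches on genes for amino acid synthesis, uptake and tRNA charging and, in long or severe stress, Ddit3, which encodes CHOP and favours cell death. Because Atf4 is largely controlled at translation, its mRNA level is not a measure of ATF4 protein.

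ATF4 and C/EBP proteins bind the C/EBP-ATF response element, whose core was searched as TGATGNAA on both strands of the 300 bases from 250 before to 50 after each RefSeq transcription start on GRCm38.p6. All 10 genes had such a promoter, and the core was found in 4 of them, Atf3, Chac1, Trib3 and Asns, against 1304 of 32851 promoters of the same length (3.97%). The 30 bases around each match are shown because they mark which members carry the element next to their start. They are read 5′ to 3′ on the gene's strand, and capitals mark the core, which is on the opposite strand in the first 3 and therefore appears there as its reverse complement:
Atf3: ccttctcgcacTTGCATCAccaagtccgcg
Chac1: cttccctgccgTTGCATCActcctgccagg
Trib3: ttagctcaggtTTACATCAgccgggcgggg
Asns: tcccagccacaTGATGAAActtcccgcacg
With the start base as position 0, the cores begin at positions -110 in Atf3, -193 in Chac1, 14 in Trib3 and -23 in Asns. The Asns core is at chr6:7693225-7693232 and falls in an exon annotated as untranslated in GENCODE M21, whose longest Asns transcript starts further upstream. The Atf3 core, at chr1:191183436-191183443, is within an intron of a longer Atf3 transcript. Those of Chac1 (chr2:119351049-119351056) and Trib3 (chr2:152344039-152344046) are in no gene annotated in GENCODE M21, although the Trib3 core lies downstream of the RefSeq start. Ddit3 has no match in its window, which says only that these letters are not there. The cAMP response element TGACGTCA, which ATF factors can also bind, was found in 588 promoters (1.79%) and in 0 of the 10.

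The libraries held 11242313 to 24457312 reads, and each of the 8 members expressed above 1 RPKM throughout (reads scaled to transcript length and library total) rested on at least 132 reads in every library. The shallowest library, p38-MAPKi replicate 1 at E3.5 + 7 h, had reads in 13997 genes against 16339 to 17641 in the other 11, and its agreement with its replicate (Pearson r = 0.924 across genes) was below the 0.969 to 0.981 of the other groups, so results at that time are also given without it. At E3.5 + 7 h the median log2 fold change of all genes tested was -0.14, and it was 0.05 after median centring. At the other 2 times the median stayed between -0.02 and 0.07. The blastocyst identity of the pools was plain from 8 of 9 trophectoderm, 9 of 9 epiblast and 7 of 9 primitive endoderm markers at a mean of 1 RPKM or more, while 0 of 8 cumulus and granulosa markers reached it and 3 of those had no read. Summed primitive endoderm markers were 134 to 140 RPKM under p38-MAPKi at E3.5 + 7 h against 196 to 214 RPKM in controls, and at the other 2 times the ranges of the groups overlapped. Summed trophectoderm markers were apart at 4 h (1962 to 1992 RPKM under p38-MAPKi against 1775 to 1936 RPKM) and summed epiblast markers at 10 h (616 to 645 against 686 to 689 RPKM). Each sum leans on its most abundant marker, Krt18 for trophectoderm and Pou5f1 for epiblast. By gene, 8 of 9 epiblast markers had a log2 fold change below 0 at each time, and 0 passed. Their medians were -0.14, -0.32 and -0.18, beside 0.07, -0.14 and -0.02 over all genes. Of 7 primitive endoderm markers tested, 5, 7 and 4 were below 0. Of single markers, Gata3 and Cdx2 of the trophectoderm fell over the 12 libraries (log2 fold change -0.51 and -0.38, adjusted p = 0.0169 and 0.0336 in limma), and Dab2 of the primitive endoderm fell at 7 h (-1.003, adjusted p = 0.0461). The trophectoderm list as a whole was split, with 4 of 8 tested markers above 0 and 4 below over the 12 libraries. Its median was -0.04, beside -0.03 over all genes. The Cdx2 call was lost in 5 of 12 other settings of the processing and on leaving out any of 7 of the 12 libraries. The Dab2 call was lost in 5 of 12 other settings and without either control library. The part of these markers in the results was not tested.

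Under p38-MAPKi, Ddit3 was higher and Asns on average lower at all 3 times, Psat1 fell at E3.5 + 10 h, and Atf4 mRNA passed the test at none of them. Changes were called with limma on the log2 RPKM values at a Benjamini-Hochberg adjusted p under 0.05. At E3.5 + 4 h the called members were 2 of the 9 tested, Ddit3 (higher) and Asns (lower), the same 2 by which the set was chosen, so that nothing is read from this count beside the 0.909% of 10781 genes called. Both calls at 4 h were lost under median centring, under quantile normalization and when all 12 libraries shared 1 estimate of the spread. At E3.5 + 7 h 1 of 8 passed (Ddit3, higher), against 2.13% of 10940 genes. At E3.5 + 10 h 1 of 8 passed (Psat1, lower), against 0.803% of 10959 genes. A fit of all 12 libraries with time as a term called 1 of 9 (Ddit3, higher), against 2.67% of 11590 genes, but it holds the 4 h libraries by which Ddit3 was chosen, and with those left out 0 members passed. Groups of 2 libraries often fail to overlap: this was so for 40.4% of the genes tested at 4 h, 61.7% at 7 h and 52.2% at 10 h, and for 3 of 9, 3 of 8 and 6 of 8 of the members tested.

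**Figure D1:**
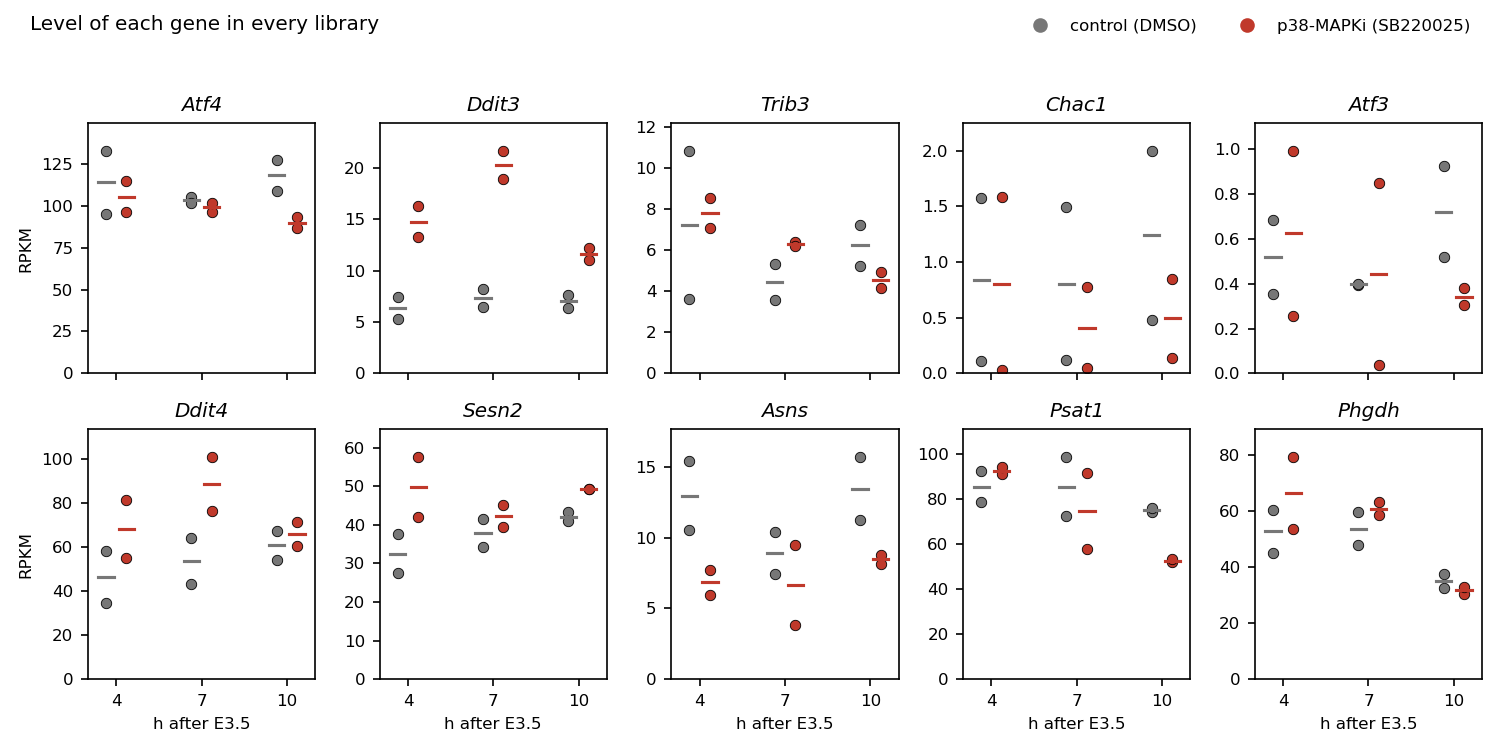
Level of each of the 10 genes (RPKM, linear axis from 0) in every library against hours after E3.5, with control in grey and p38-MAPKi in red, 2 libraries a group and a short line at their mean. The p38-MAPKi libraries sit above the controls for Ddit3 at all 3 times, and those of Asns sit below at 4 and 10 h but overlap at 7 h. The Chac1 replicates lie far apart, and those of Atf3 do so in some groups.

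Ddit3 encodes CHOP, a transcription factor of the C/EBP family that promotes apoptosis under persistent stress. It stood at 5.29 and 7.42 RPKM in the control pools of E3.5 + 4 h and at 13.2 and 16.2 RPKM under p38-MAPKi. At E3.5 + 7 h the controls held 8.18 and 6.47 RPKM and the p38-MAPKi pools 21.6 and 18.9 RPKM. At E3.5 + 10 h they held 6.38 and 7.60 against 12.2 and 10.98 RPKM. All 6 p38-MAPKi pools were thus above all 6 controls, and the gap was widest at 7 h. The log2 fold changes were 1.23 (SE 0.23) at 4 h, 1.47 (SE 0.20) at 7 h and 0.74 (SE 0.12) at 10 h, that is 2.34-fold, 2.77-fold and 1.66-fold. The change at 7 h passed (adjusted p = 0.0397 in limma) and that at 10 h missed (adjusted p = 0.0561). In a fit of only the 8 libraries of 7 h and 10 h, added after seeing the data, the change was 1.10 (SE 0.17, unadjusted p = 9.53e-05) with an adjusted p of 0.0776 in limma, where 0.0439% of 11400 genes passed. The change at 10 h was smaller than at 7 h by 0.74 (SE 0.23, unadjusted p = 0.0123), which missed over all genes (adjusted p = 0.106 in limma). Without the shallowest library the change at 7 h was 1.38 (adjusted p = 0.00319 in limma). The call at 7 h was lost under median centring (log2 fold change 1.67, adjusted p = 0.0694 in limma). Without the variance trend of limma or the filter on low values it was lost too (adjusted p = 0.158 and 0.0716). The same held after removal of each library's trend of level with transcript length (1.20, adjusted p = 0.0516 in limma) and without control replicate 2 (1.30). A weighted fit of the recovered whole reads (voom) gave adjusted p = 0.00191 at 7 h and 0.0316 at 10 h.

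Ddit3 (chr10:127290774-127296288, plus strand) ends within Mars, the methionyl-tRNA synthetase gene, on the opposite strand, and the 2 genes share their last 68 bases. Mars was read at 61.9 to 83.5 RPKM, and if its coverage was even, that stretch would amount to 2.90 RPKM of Ddit3 were the counting blind to strand. The library kit marked strand, and the setting used to count is not given in the sources used here. Mars itself did not pass at any time, with log2 fold changes of -0.01, -0.30 and -0.30. Whether reads from Mars entered the Ddit3 values was not tested.

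Asns encodes asparagine synthetase, which makes asparagine from aspartate and glutamine and is a classical target of ATF4 when amino acids run short. Its core element is printed above. At E3.5 + 4 h it was at 10.5 and 15.4 RPKM in the controls and at 7.74 and 5.94 RPKM under p38-MAPKi. At E3.5 + 7 h the controls held 10.4 and 7.44 RPKM and the p38-MAPKi pools 9.46 and 3.84 RPKM. At E3.5 + 10 h the values were 15.7 and 11.2 against 8.78 and 8.12 RPKM. The groups did not overlap at 4 and 10 h, and at 7 h 1 p38-MAPKi pool, that of the shallowest library, lay between the controls. The log2 fold changes were -0.91 (SE 0.23) at 4 h, -0.54 (SE 0.38) at 7 h and -0.65 (SE 0.16) at 10 h, or 0.532, 0.686 and 0.636 times the control. Neither later change passed (adjusted p = 0.370 at 7 h and 0.102 at 10 h in limma), nor did their common value of -0.60 (SE 0.26, adjusted p = 0.253 in limma). A single library decided the value at 7 h, which was -1.19 (adjusted p = 0.0137 in limma) without p38-MAPKi replicate 1 and 0.11 (adjusted p = 0.785) without replicate 2. At 10 h the change passed in the voom fit of reads (adjusted p = 0.0446).

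Set against each other in the same library, Ddit3 and Asns changed places. Since both are divided by the same library total, their ratio does not move with the scaling of the libraries. Ddit3 was at 0.502 and 0.482 times the RPKM of Asns in the controls at 4 h, 0.789 and 0.871 times at 7 h and 0.406 and 0.676 times at 10 h. Under p38-MAPKi the ratio was 1.71 and 2.73 at 4 h, 2.28 and 4.92 at 7 h and 1.39 and 1.35 at 10 h. Ddit3 was the lower of the pair in all 6 control pools and the higher in all 6 p38-MAPKi pools. On the log2 scale the ratio differed between the groups by 2.13, 2.02 and 1.39, against pooled SDs between replicates of 0.34, 0.56 and 0.37 (n = 2 a group), which is 4.39-fold, 4.04-fold and 2.62-fold. These values carry no test, since the pair was chosen for its opposite change.

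**Figure D2:**
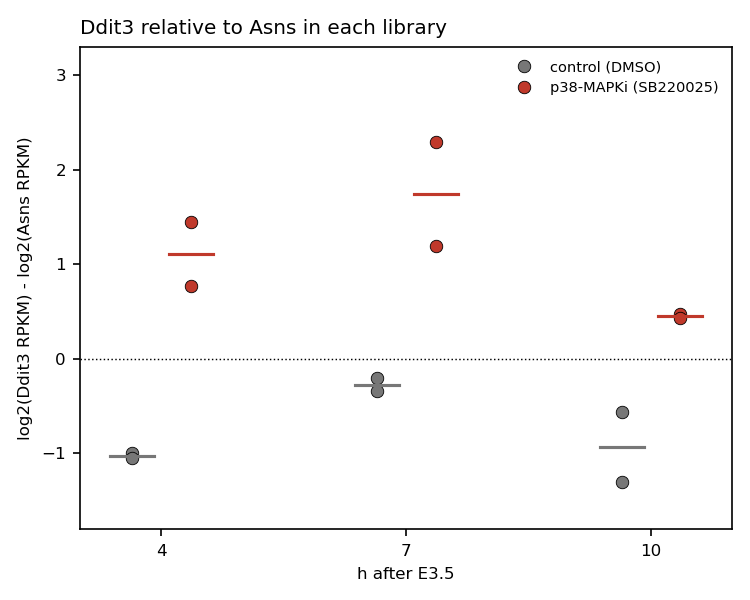
Difference between the log2 RPKM of Ddit3 and that of Asns in each library against hours after E3.5, with control in grey, p38-MAPKi in red and a short line at the mean of 2 libraries. All 6 controls lie between -1.30 and -0.20, below the dotted line of equal level, and all 6 p38-MAPKi libraries between 0.44 and 2.30, above it.

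Of the other amino acid synthesis genes, Psat1 fell at 10 h and Phgdh passed at no time. Psat1, the phosphoserine aminotransferase of serine synthesis, was at 78.7 and 92.4 RPKM in controls and 90.9 and 94.5 RPKM under p38-MAPKi at 4 h, where the groups overlapped. At 7 h it was at 72.4 and 98.7 against 57.8 and 91.5 RPKM, again with overlap. At 10 h it was at 74.4 and 76.0 RPKM in controls and at 52.2 and 53.2 RPKM under p38-MAPKi, with replicates closer together than at the other times. Its log2 fold changes were 0.12 (SE 0.20), -0.22 (SE 0.25) and -0.51 (SE 0.06), and Psat1 fell at 10 h (0.701 times the control, adjusted p = 0.0398 in limma). The change at 10 h lay below that at 4 h by 0.63 (SE 0.16, unadjusted p = 0.00271) and missed over all genes (adjusted p = 0.429 in limma). The call at 10 h was lost without control replicate 2 (adjusted p = 0.0519) and when all 12 libraries shared 1 estimate of the spread (adjusted p = 0.856), with the value at -0.50 and -0.51.

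Phgdh, which encodes phosphoglycerate dehydrogenase, the first enzyme of the same pathway, passed at no time. It was at 45.1 and 60.5 RPKM in controls and 53.6 and 79.3 RPKM under p38-MAPKi at 4 h, and at 47.9 and 59.6 against 58.6 and 63.2 RPKM at 7 h. At 10 h both groups were lower, with 32.6 and 37.6 RPKM in controls and 30.5 and 33.0 RPKM under p38-MAPKi. The groups overlapped at all 3 times, and the log2 fold changes were 0.32 (SE 0.20), 0.19 (SE 0.18) and -0.14 (SE 0.09), with adjusted p of 0.651, 0.508 and 0.425 in limma.

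Atf4 itself, the most abundant member, was at 95.4 and 132.8 RPKM in controls and 96.6 and 114.8 RPKM under p38-MAPKi at 4 h. At 7 h it was at 105.6 and 101.9 against 96.5 and 102.1 RPKM. At 10 h it was at 109.2 and 127.6 against 86.7 and 93.3 RPKM, and this was the only time at which the groups did not overlap. The log2 fold changes were -0.10 (SE 0.20), -0.06 (SE 0.16) and -0.39 (SE 0.09). None passed (adjusted p = 0.909, 0.819 and 0.0931 in limma), although the change at 10 h did in the voom fit (adjusted p = 0.0249) and without control replicate 1 (-0.50, adjusted p = 0.0433 in limma).

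Ddit4 and Sesn2, both inhibitors of mTORC1 signalling, were higher on average under p38-MAPKi at all 3 times without passing the test. Ddit4 was at 34.5 and 58.1 against 81.4 and 54.9 RPKM at 4 h, at 43.4 and 64.1 against 76.6 and 101 RPKM at 7 h, and at 54.3 and 67.5 against 60.3 and 71.4 RPKM at 10 h, with the control pair first. Its groups did not overlap at 7 h, where the log2 fold change was 0.74 (SE 0.23, adjusted p = 0.0869 in limma), against 0.58 (SE 0.20, adjusted p = 0.154) at 4 h and 0.12 (SE 0.12, adjusted p = 0.645) at 10 h. The change at 7 h passed in the voom fit (adjusted p = 0.0174) and without the shallowest library (0.94, adjusted p = 0.0371 in limma). Sesn2 was at 27.5 and 37.6 against 57.6 and 42.2 RPKM at 4 h, at 34.1 and 41.7 against 39.5 and 45.2 RPKM at 7 h, and at 43.4 and 40.9 against 49.3 and 49.4 RPKM at 10 h. Its groups were apart at 4 and 10 h, with log2 fold changes of 0.62 (SE 0.20, adjusted p = 0.115 in limma), 0.16 (SE 0.18, adjusted p = 0.566) and 0.23 (SE 0.07, adjusted p = 0.138). Over the 12 libraries the common changes were 0.48 (SE 0.17) for Ddit4 and 0.34 (SE 0.12) for Sesn2, with adjusted p of 0.117 and 0.115 in limma.

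Trib3 encodes a pseudokinase that is induced by ATF4 and CHOP and holds ATF4 activity back. At 4 h the controls were at 3.63 and 10.8 RPKM and enclosed the p38-MAPKi pools at 8.53 and 7.05 RPKM. At 7 h the p38-MAPKi pools, at 6.40 and 6.18 RPKM, were above the controls at 3.54 and 5.30 RPKM. At 10 h they were below, at 4.15 and 4.94 against 5.24 and 7.21 RPKM. The log2 fold changes were 0.31 (SE 0.24), 0.54 (SE 0.26) and -0.44 (SE 0.18), and none passed (adjusted p = 0.730, 0.210 and 0.240 in limma). The change at 10 h minus that at 7 h was -0.98 (SE 0.33, unadjusted p = 0.018), which missed over all genes (adjusted p = 0.121 in limma).

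Chac1, which encodes a glutathione-degrading enzyme, and Atf3, a transcription factor induced by many stresses, were near the limit of detection. Chac1 was covered by 3 and 47 reads in the controls of 4 h, 4 and 57 in those of 7 h and 15 and 76 in those of 10 h. Under p38-MAPKi it had 63 and 0 reads at 4 h, 0 and 22 at 7 h and 5 and 34 at 10 h. The spread between replicate pools was larger than any difference between the groups, and the libraries with 0 reads allow up to 0.0848 RPKM at 4 h and 0.163 RPKM at 7 h, a limit of 3 reads that covers counting error only. Atf3 had 13 and 27, 18 and 20, and 38 and 26 reads in the controls of 4, 7 and 10 h and 52 and 12, 0 and 32, and 18 and 16 reads under p38-MAPKi. Neither reached 1 RPKM in 2 libraries at 7 h or 10 h. Only Chac1 did at 4 h, where its log2 fold change of -1.03 had an SE of 1.16 (adjusted p = 0.821 in limma).

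**Figure D3:**
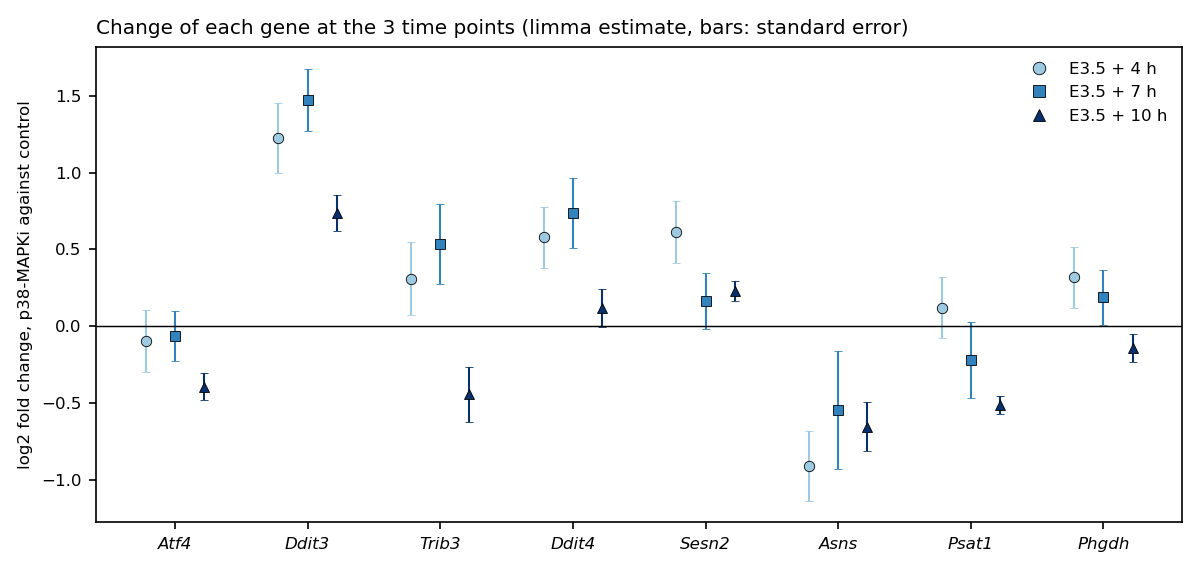
Log2 fold change of p38-MAPKi against control for the 8 members tested at every time point (limma estimate, bars are 1 SE), with circles for E3.5 + 4 h, squares for 7 h and triangles for 10 h. Ddit3 is above 0 and Asns below 0 at all 3 times, and Trib3, Psat1 and Phgdh are above 0 at 4 h and below 0 at 10 h.

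In order of mean level per length over the 6 control pools, the genes ran from Atf4 (112 RPKM, SD 14.8) through Psat1 (82.1, SD 10.8), Ddit4 (53.6, SD 12.6), Phgdh (47.2, SD 11.3), Sesn2 (37.5, SD 5.91), Asns (11.8, SD 3.19), Ddit3 (6.89, SD 1.04), Trib3 (5.95, SD 2.73) and Chac1 (0.960, SD 0.824) to Atf3 (0.546, SD 0.222). Neighbours overlapped in range except between Psat1 and Ddit4, Sesn2 and Asns, and Trib3 and Chac1. Under p38-MAPKi the order was the same except that Ddit4 (74.3 RPKM, SD 16.4) stood before Psat1 (73.3, SD 20.9), with overlap, and Ddit3 (15.5, SD 4.14) before Asns (7.31, SD 2.08), without overlap.

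The size of the p38-MAPKi effect on the members could not be shown to change with time. None of 9 passed for 7 h minus 4 h (0.00884% of 11311 genes did), for 10 h minus 7 h (0.00877% of 11400) or for 10 h minus 4 h (0% of 11288). Unadjusted p-values in limma were under 0.05 for 0, 2 and 1 of them, and the voom fits called 0 in each. Of those that moved most between 7 h and 10 h, Trib3 and Ddit3 are given above. In the controls alone, 0 of 9 passed between 4 h and 10 h, where 0.471% of 10825 genes did, with 2 at an unadjusted limma p under 0.05 and 3 called by the voom fit. Those 2 were Phgdh, lower at 10 h by a log2 fold change of -0.58 (SE 0.15, adjusted p = 0.112 in limma), and Sesn2, higher by 0.39 (SE 0.15, adjusted p = 0.261). Ddit3 and Asns differed by 0.15 (SE 0.18) and 0.06 (SE 0.20) over the same interval in the controls, which are also the reference of the p38-MAPKi comparisons.

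Other genes of the pathway were taken from lists of known sensors, factors and targets. Of 12 eIF2 kinases, phosphatase subunits and initiation factor subunits, 11 were tested and 0 passed at any time, with median log2 fold changes of 0.05, -0.08 and -0.08 at 4, 7 and 10 h. Its most abundant gene was Eif2b5, a subunit of the exchange factor of eIF2. Of 8 transcription factors 6 were tested, and beside Ddit3 only Cebpb, a partner of ATF4, rose, at 4 h, from 2.61 and 4.88 to 8.47 and 6.06 RPKM (log2 fold change 1.01, adjusted p = 0.0158 in limma). This call was lost in 8 of 11 other settings, voom among them, and without control replicate 1 or p38-MAPKi replicate 1, with values of 0.49 to 1.46. Cebpb was at 4.06 and 8.17 against 10.5 and 18.2 RPKM at 7 h and at 4.85 and 7.88 against 4.80 and 5.76 RPKM at 10 h.

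The list of stress and death targets, which holds Ddit3, Trib3, Chac1, Atf3, Ddit4 and Sesn2, had 15 genes. At 4 h 11 were tested and, apart from Ddit3, by which the set was chosen, 1 rose (Bbc3). At 7 h 1 of 10 rose (Ddit3) and at 10 h 0 of 10, and 9, 9 and 8 were above 0 at the 3 times. Across the other settings the calls, Ddit3 included, ran from 0 to 3 at 4 h and 0 to 5 at 7 h. At 4 h they were 0 without control replicate 1 and 4 without either p38-MAPKi library, and at 7 h 0 without control replicate 2 and 4 and 2 without p38-MAPKi replicates 1 and 2. The medians were 0.58, 0.55 and 0.13, beside 0.07, -0.14 and -0.02 over all genes. Bbc3 encodes the death promoter PUMA and is a target of p53 as well as of CHOP. At 4 h it was at 9.45 and 11.7 RPKM in controls and 25.2 and 19.2 RPKM under p38-MAPKi (log2 fold change 1.07, adjusted p = 0.000268 in limma). This call was lost in 5 of 12 other settings and without control replicate 1. The changes of Bbc3 at 7 h and 10 h were 0.57 and 0.58 (adjusted p = 0.0837 and 0.0874 in limma). The p53 target list, which shares Bbc3 and Sesn2 with this one, had 5, 2 and 3 of 16 genes higher and 0 lower at the 3 times. Over all genes 0.909%, 2.13% and 0.803% passed. Of the p53 targets 15, 14 and 15 were above 0, with medians of 0.49, 0.28 and 0.40, beside 0.07, -0.14 and -0.02. Phlda3, Plk2, Btg2 and Pidd1 were among the p53 targets that passed, with 1.01, 1.33, 1.27 and 0.97 at 4 h. Across the other settings the counts of this list ran from 0 to 5, 0 to 6 and 0 to 9 at 4, 7 and 10 h. They fell to 0 without control replicate 1 at 4 h and without control replicate 2 at 7 h, to 1 without control replicate 1 at 7 h, and rose to 7 without control replicate 1 at 10 h.

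On the amino acid side, 11 of 13 synthesis genes were tested. Apart from Asns at 4 h, by which the set was chosen, 0 passed at 4 h and 7 h and 1, Psat1, at 10 h. The medians were 0.06, -0.12 and -0.14, beside 0.07, -0.14 and -0.02 over all genes, and 8, 5 and 3 genes were above 0. At 4 h and 7 h the list's median was thus near that of all genes. Of 10 amino acid transporters 6 were tested and 0 passed at any single time. The medians were -0.29, -0.73 and -0.36, beside 0.07, -0.14 and -0.02 over all genes. At 7 h Slc38a2 and Slc1a4 (-1.54 and -1.33) reached the minimum of 1 RPKM only through their controls. Their part in the median at 7 h is therefore no check of the difference between the groups. Over the 12 libraries 4 of the 6 were below 0 and 2 above. Slc1a5 was above 0 at all 3 times (0.35, 0.58 and 0.26), with a common log2 fold change of 0.40 (adjusted p = 0.0587 in limma). The most abundant of the list, Slc3a2, had a common change of 0.05 (adjusted p = 0.7355 in limma). Slc38a2 and Slc1a4 fell, which encode carriers of small neutral amino acids. Slc38a2 was at 2.02 and 3.73 against 1.28 and 0.970 RPKM at 4 h, at 2.45 and 1.51 against 0.673 and 0.645 RPKM at 7 h, and at 3.60 and 3.19 against 1.30 and 2.16 RPKM at 10 h. It was below the controls in all 6 p38-MAPKi pools at their own time, with a common log2 fold change of -1.29 (SE 0.22, adjusted p = 0.0132 in limma). For Slc1a4 the common change was -0.996 (SE 0.23, adjusted p = 0.0392 in limma), at levels of 0.467 to 3.32 RPKM, and the call was lost in 4 of 11 other settings and on leaving out any of 9 of the 12 libraries. That of Slc38a2 was lost in 1 of 11, the fit of 7 h and 10 h only, and on leaving out none of the 12. Of 14 tRNA synthetase genes that ATF4 is known to activate, 1 passed, Iars at 7 h, from 26.7 and 35.6 to 11.1 and 15.9 RPKM (log2 fold change -1.21, adjusted p = 0.0461 in limma). That call was lost in 5 of 12 other settings and without control replicate 2. With 1 library left out, the Iars value ranged from -1.47 to -0.96. At the 3 times 8, 3 and 2 of 14 were above 0, with medians of 0.01, -0.15 and -0.22, beside 0.07, -0.14 and -0.02 over all genes.

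The other branches of the unfolded protein response, under ATF6 and IRE1, were represented by 14 genes, most of them for chaperones and folding enzymes of the endoplasmic reticulum. Of the 14 tested 6 fell at 10 h, where 0.803% of 10959 genes passed. At that time 0 of 14 were above 0, with a median of -0.47, beside -0.02 over all genes. At 4 h and 7 h 0 passed, with medians of 0.08 and -0.07, beside 0.07 and -0.14 over all genes. Hspa5, which encodes the chaperone BiP, was at 215.7 and 244.1 RPKM in the controls of 10 h and at 126 and 147 RPKM under p38-MAPKi (log2 fold change -0.75, adjusted p = 0.0398 in limma). Dnajb9, a co-chaperone of BiP, went from 15.2 and 13.4 to 7.70 and 7.59 RPKM (-0.90, adjusted p = 0.0367). The other 4 were Manf (-0.77), Creld2 (-0.61), Hsp90b1 (-0.60) and Pdia6 (-0.51). The count of 6 became 0 without the filter on low values, without the variance trend and with all 12 libraries in one fit, and was 5 to 7 when 1 library was left out.

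**Figure D4:**
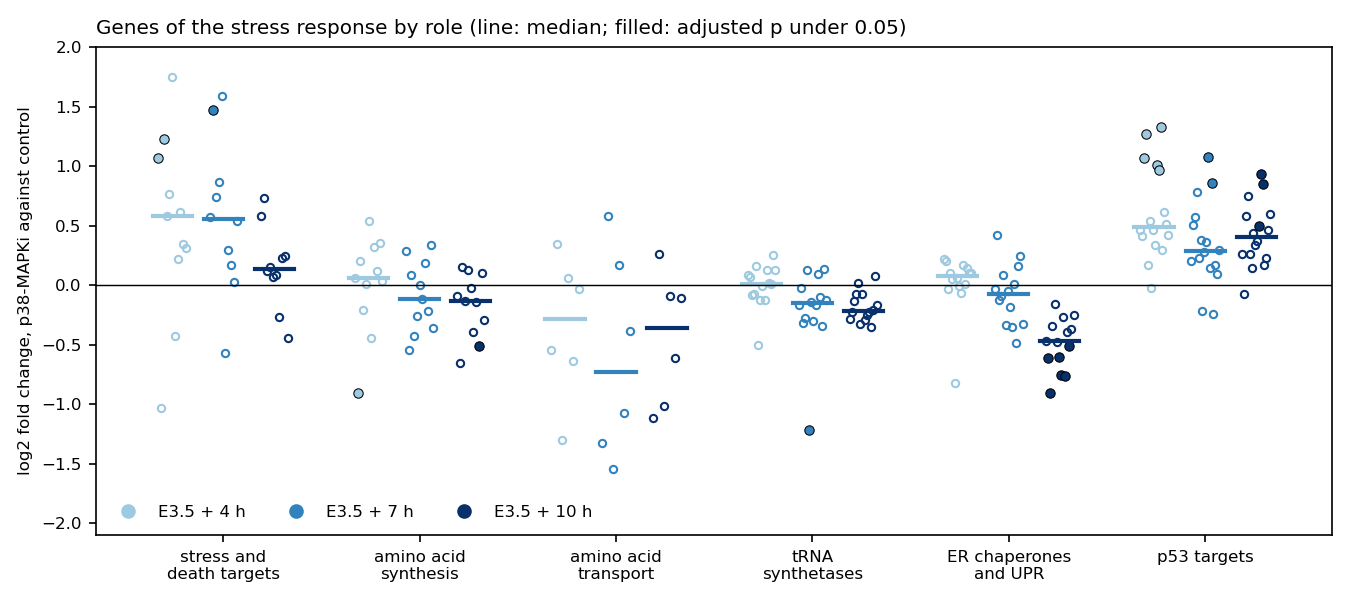
Log2 fold change of p38-MAPKi against control for every tested gene of 6 lists, in light, middle and dark blue for E3.5 + 4, 7 and 10 h, with filled points for genes that passed and a line at the list's median. The stress and death targets lie mostly above 0 at 4 and 7 h (medians 0.58 and 0.55), the transporters mostly below 0, and all 14 endoplasmic reticulum genes below 0 at 10 h.

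Across the 12 libraries the genes whose log2 values ran most like Ddit3 among 11590 genes were Mlxipl (Pearson r = 0.968), Rassf1 (0.966), Gm15892 (0.965), Ier2 (0.958) and the p53 target Phlda3 (0.946). Those most like Asns were Tada1 (0.932), Gm527 (0.908), Stn1 (0.897), Mon1b (0.892) and Spry2 (0.873). No member was among either 5. Of the other members, Ddit4 came nearest to Ddit3 (r = 0.679) and Asns lay farthest from it (r = -0.645), and Atf4 came nearest to Asns (r = 0.356). All points share the split into control and p38-MAPKi libraries, so these coefficients describe 12 libraries in 6 groups and are given without a test.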

How the data were processed

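Messenger RNA was sequenced from 12 pools of 30 blastocysts. The authors trimmed reads with Trim Galore (0.4.1), aligned them to GRCm38 with HISAT2 (2.0.5), per the labels, and quantified genes in SeqMonk. They deposited 1 table of log2 RPKM for 34245 genes. The strand setting and the treatment of multiply mapped reads are not given in the sources used here. A gene without reads is written as 0.9 read, from which library totals and whole reads were recovered for 34240 genes (99.99%). The log2 values were compared with limma (3.58.1; trended eBayes, R 4.3.3) within each time point, for genes that reached 1 RPKM in 2 or more libraries, and p-values were adjusted over all genes tested. At 4 h the estimated prior degrees of freedom were infinite, so a gene's own spread did not enter its test. Read counts were fitted with voom as an alternative. The pools are biological duplicates per the study's methods. Same-numbered pools deviated together with r = -0.012, 0.162 and 0.167 at 4, 7 and 10 h, so the numbers were not taken as pairs. Members and lists were chosen with earlier results of these data known. Named genes were the 10 members, list genes that passed (up to 8 a list) or had the list's highest level, and the 5 genes most like Ddit3 and Asns. Further genes that passed in a list are counted and not all named. Promoter sequences are from RefSeq. Sensitivity to scaling, filters, pseudocount, replicate block, length trend and single libraries was tried. The common fit of 7 h and 10 h was chosen after seeing the data.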

Additional observations from a re-analysis of the deposited data

Results flagged for a closer look

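The estimated p38-MAPKi effect on Trib3 was above 0 at 7 h and below 0 at 10 h, but neither effect passed (adjusted p = 0.210 and 0.240 in limma). The log2 fold change at 10 h minus that at 7 h was -0.98 (-0.9791, SE 0.33, unadjusted p = 0.018, adjusted p = 0.121 in limma), which missed as well. Both p38-MAPKi pools were above both controls at 7 h and both below at 10 h. Groups that did not overlap, in either direction, were seen for 61.7% of the genes tested at 7 h and 52.2% at 10 h.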

How the results depend on the processing

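Of 698 values of the members under an alternative, 686 kept their direction and 623 also their side of the threshold, while 25 lost a call and 38 gained one. The minimum of 10 RPKM kept Ddit3 at each time only through its p38-MAPKi pools, and Asns at 4 h and 10 h only through its controls. Their calls under that minimum are therefore no check of the difference between the groups. The number of members that passed, 2 at 4 h, was 0 without the variance trend, under median centring or quantile normalization, without the filter, and with all 12 libraries in one fit, and 1 with voom. Leaving out 1 library gave 0 to 3. The 1 at 7 h became 0 without the trend or the filter, under median centring and after removal of the length trend, 2 at a minimum of 10 RPKM, with voom and at an adjusted p under 0.1, and 0 to 3 without 1 library. The 1 at 10 h became 0 without the trend or the filter and with all 12 libraries in one fit, 2 under quantile normalization, at 10 RPKM and after removal of the length trend, 3 at an adjusted p under 0.1, 4 with voom, and 1 to 2 without 1 library. Over all 12 libraries the 1 became 2 under median centring, quantile normalization, voom, an adjusted p under 0.1 or without 1 library (1 to 2), and 0 in the libraries of 7 h and 10 h only. In the controls, 10 h against 4 h, the 0 became 3 at 10 RPKM and with voom, 1 after removal of the length trend, and 0 to 2 without 1 library. For the differences 10 h minus 7 h and 10 h minus 4 h it was 0 to 1 without 1 library.

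With the replicate block, 2 members passed at 7 h (Ddit4 added, adjusted p = 0.0112), 4 at 10 h (Atf4, Ddit3 and Asns added, adjusted p = 0.0308, 0.0201 and 0.0251) and 2 in the controls. The block changed no other count of members. Over all genes the block gave 2023 calls at 7 h against 233, 410 against 88 at 10 h and 76 against 310 over the 12 libraries.

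With a pseudocount of 5, the Ddit3 to Asns difference fell to 1.39, 1.33 and 0.92 at 4, 7 and 10 h. Values whose direction turned were Psat1 at 4 h under quantile normalization (-0.057) and Atf4 at 7 h under median centring (0.13). Without 1 library in turn, Atf4 ranged from -0.33 to 0.14, Trib3 from -0.48 to 1.09 and Chac1 from -2.97 to 1.95 at 4 h, Asns from -1.19 to 0.11 and Psat1 from -0.55 to 0.11 at 7 h, Ddit4 from -0.039 to 0.27 at 10 h, and the common Trib3 effect from -0.083 to 0.31.

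Over all genes, calls across the settings other than left-out libraries ranged from 0 to 185 at 4 h (98 as reported), 0 to 2512 at 7 h and 0 to 524 at 10 h, and voom called 34, 1725 and 524. Unadjusted p-values under 0.05 numbered 1016, 3102 and 2172. Between 0 and 9 endoplasmic reticulum genes passed at 10 h, with 5 to 7 when 1 library was left out. The causes were not tested. Depth limits Chac1 and Atf3, for which single pools held 0 reads.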
